A study of Homo sapiens with 2 samples.

Results

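The R-loop resolution and transcription-replication conflict factors described here are 9 genes, AQR, RNASEH1, RNASEH2A, RNASEH2B, RNASEH2C, DHX9, DDX5, THOC1 and THOC3. They were chosen by name, as the rows of the expression table that carry these symbols, and all 9 are among its 17912 entries, with 1 row each. RNA was measured in asynchronously growing U2OS cells, an established human osteosarcoma line, after 18 h in 0.3 µM aphidicolin, which slows replication forks by inhibiting DNA polymerases. The series maps mitotic DNA synthesis and common fragile sites. There are 2 libraries, replicates 1 and 2 of this single group, with 13227805 and 13020149 reads. Nothing in the labels ties them to separate cultures, and their spread may therefore be technical only. An untreated library was not analysed here, so every value is a level under aphidicolin and not a response to it.

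An R-loop forms when nascent RNA pairs with its DNA template and leaves the other DNA strand unpaired. Such hybrids can block a replication fork that meets the transcribing polymerase, and long transcribed genes at fragile sites are a known setting for that encounter. Cells limit R-loops by packaging RNA as it is made, unwind them with helicases, and cut the RNA strand with the RNase H enzymes.

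A few sequences are shown first, because they bear on how the values can be read. For THOC3, these 41-base stretches of coding sequence from GENCODE release 29 on GRCh38 stand beside the same stretches of a transcribed pseudogene, named AC106795.1 in GENCODE, elsewhere on chromosome 5. They show how little a read has to tell the copies apart, and the capital letter marks the only base that differs in each pair.
THOC3 around coding base 51: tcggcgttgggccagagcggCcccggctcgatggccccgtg
AC106795.1, same stretch: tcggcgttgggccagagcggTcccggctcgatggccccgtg
THOC3 around coding base 942: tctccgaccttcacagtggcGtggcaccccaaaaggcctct
AC106795.1, same stretch: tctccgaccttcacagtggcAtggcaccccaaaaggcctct
Counted from 1 at the start codon of THOC3, with the THOC3 base first, the substitutions are C51T and G942A. They are the only 2 in the coding sequence of 1053 bases. Over 1570 aligned transcript bases, 1565 were identical (99.7%).

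The windows of 250 bases before the annotated starts were read from RefSeq (GRCh38.p14). For 3 of the 9 genes they held the letters ACTACA, any 2 bases, then TCCC, which resemble a motif known for the transcription factor ZNF143. The stretches are given on the strand of the gene, and capitals mark the match, which in THOC3 lies on the opposite strand. DDX5, the most abundant of the genes, is shown for its TATAAA, also in capitals.
RNASEH2A, chr19:12806466-12806495, plus strand: cccttcgggACTACAATTCCCaggagggcg
RNASEH2C, chr11:65720868-65720897, minus strand: ggtaaggggACTACACTTCCCgtgaagctc
THOC3, chr5:175968339-175968368, minus strand: ctgcataccGGGATTTGTAGTcccttccgg
DDX5, chr17:64506302-64506331, minus strand: ggcggtccagacTATAAAagcggctgccgg
The first base of the match lay at -109 from the start in RNASEH2A, at -90 in RNASEH2C and at -44 in THOC3, and TATAAA began at -30 in DDX5. DDX5 has several annotated starts, and TATAAA was found in the window chr17:64506290-64506539 and not in its other windows. Searched on both strands, the first motif was present in 1.67% of 35116 windows and TATAAA in 10.7%. A gene can have several windows, so these shares are not shares of genes. Both motifs were picked after the windows of the 9 genes had been read, and other motifs searched in the same windows are not shown. Listed genes with the first motif had a median of 7.43 RPKM (477 genes) against 4.26 RPKM for those without it (12905 genes). RNASEH2C lay above the first median, and THOC3 and RNASEH2A lay below both. For TATAAA the medians ran the other way, 1.93 RPKM with it (1263 genes) and 4.68 RPKM without it (12119 genes), and DDX5 lay far above both. A match is only a description of these letters.

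The deposited unit is RPKM, reads divided by the length of exon and by the size of the library, and a gene is called expressed here when it reached 1 RPKM in both libraries. Of the 9 genes, 8 were expressed, beside 66.7% of all entries and 72.9% of protein-coding entries, and RNASEH2A was not. Reads recovered from the RPKM put the genes on 2 other scales as well, CPM (reads divided by library size alone) and reads per kilobase of the principal coding transcript in place of all annotated exons. The reads on the last scale are still those of all annotated exons. Any that fall outside the principal transcript raise the value, and their number was not measured. The range from DDX5 to RNASEH2A was 219-fold in RPKM, 514-fold in CPM and 554-fold per kilobase of principal transcript. The median of the 9 genes was 4.24 RPKM, beside 3.53 RPKM over all entries and 4.83 RPKM over protein-coding entries. In RPKM it thus lay above the median of all entries and below that of protein-coding entries. On the other scales the median of the 9 genes lay above that of the entries with a value. In CPM it was 39.6 against 20.2, over entries of all gene types with recovered reads. A CPM median over protein-coding entries alone was not taken, so CPM shows no change of direction from RPKM. Per kilobase of principal transcript it was 14.2 against 7.54, over only those entries that have a protein-coding transcript. The helicase genes DDX5 and DHX9 stood far above the other 7, whose means ran from 0.491 to 7.76 RPKM.

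**Figure D1:**
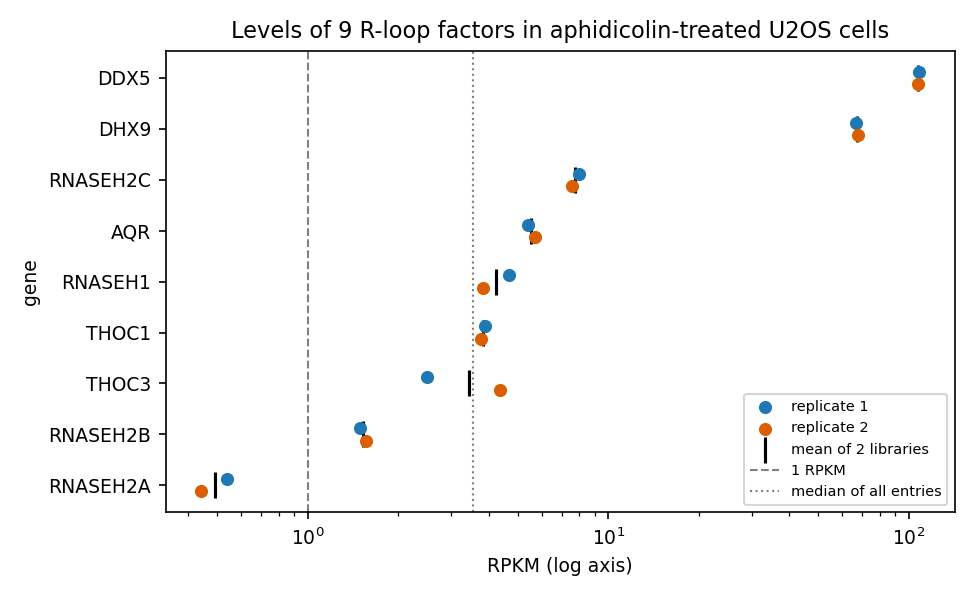
RPKM (log axis) of each of the 9 genes in replicate 1 and replicate 2, with the mean of both as a black bar, 1 RPKM as a dashed line and the median of all entries as a dotted line. DDX5 at 107 RPKM and DHX9 at 67.3 RPKM stand apart on the right, RNASEH2A is the only gene left of the dashed line, and the points of THOC3 lie farthest apart.

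The helicases covered a wide range. DDX5 encodes a DEAD-box RNA helicase that acts in splicing, transcription and R-loop unwinding, and it lies at chr17:64499616-64508199 on the minus strand (GENCODE release 29, GRCh38, used for all gene positions). The libraries gave 107.9 and 106.8 RPKM, a mean of 107 ± 0.756 RPKM (SD, n = 2). It ranked 229 among all entries, at percentile 98.7, and no base of its coding sequence lies in exons of another gene. Its paralog DDX17 was lower in both libraries, at 60.6 and 59.2 RPKM. The ratio of DDX5 to DDX17 was 1.79 ± 0.0162 in RPKM.

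DHX9 (chr1:182839369-182887751, plus strand) encodes RNA helicase A, which unwinds RNA duplexes and RNA-DNA hybrids. It stood at 66.7 and 67.8 RPKM, 67.3 ± 0.762 RPKM (SD, n = 2), at percentile 97.3. Its libraries differed by 1.13% (CV), less than the 1.39% that counting error alone gives. The ratio of DDX5 to DHX9 was 1.60 ± 0.0293 in RPKM and 3.85 ± 0.0706 per kilobase of principal transcript, and their ranges did not overlap on either scale.

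AQR (chr15:34851782-34969839, minus strand) encodes Aquarius, the helicase of the spliceosome that binds introns and is also known to limit R-loops. It was at 5.38 and 5.68 RPKM, 5.53 ± 0.210 RPKM (SD, n = 2), at percentile 58.6. DHX9 was thus 12.2 ± 0.325 times AQR in RPKM, and 12.2 ± 0.326 times per kilobase of principal transcript. The known partners of AQR in the intron-binding complex were all expressed: XAB2 at 11.8 ± 0.714 RPKM, PPIE at 7.0 ± 0.0984, ZNF830 at 6.99 ± 0.379 and ISY1 at 3.77 ± 0.404. AQR was lower than XAB2 and PPIE both in RPKM and per kilobase of principal transcript, and higher than ISY1. In CPM, which uses no length, AQR at 74.3 ± 2.82 lay above both XAB2 at 54.8 ± 3.32 and PPIE at 56.5 ± 0.794. Against ZNF830 the direction turned with the length, as AQR stood at 7.66 ± 0.291 and ZNF830 at 6.97 ± 0.378 per kilobase of principal transcript.

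The nucleases lay lower than DDX5 and DHX9, and their order depended on the length used for scaling. RNASEH1 (chr2:3544793-3558616, minus strand) encodes the monomeric RNase H1, which degrades the RNA of hybrids in nuclei and mitochondria. Replicate 1 gave 4.65 RPKM and replicate 2 gave 3.82 RPKM, 4.24 ± 0.587 RPKM (SD, n = 2), which is the median of the 9 genes. RNASEH1-AS1, a transcript from the opposite strand that shares 125 exonic bases with it, was at 2.88 and 3.11 RPKM. Replicate 1 was the higher library for RNASEH1 and the lower one for RNASEH1-AS1. Whether strand was used in counting is not given in the sources used here, so reads of the shared bases cannot be assigned to either gene.

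RNase H2 is a complex of 3 proteins that removes both hybrids and single ribonucleotides from DNA, and mutations in its genes cause Aicardi-Goutières syndrome. RNASEH2A (chr19:12806556-12815201, plus strand) encodes the catalytic subunit. It was at 0.539 and 0.442 RPKM, 0.491 ± 0.0684 RPKM (SD, n = 2), and only 26 and 21 reads stand behind these values. It was the lowest of the 9 genes in both libraries, at percentile 24.6 of all entries, and the difference between its libraries was smaller than counting error.

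RNASEH2B (chr13:50909678-51024120, plus strand), which encodes an auxiliary subunit, was at 1.495 and 1.557 RPKM, 1.53 ± 0.0437 RPKM (SD, n = 2), at percentile 37.4. RNASEH2C (chr11:65714005-65720947, minus strand), which encodes the other auxiliary subunit, was at 7.96 and 7.56 RPKM, 7.76 ± 0.283 RPKM (SD, n = 2), at percentile 65.9. The libraries thus gave 1 order in RPKM, RNASEH2C above RNASEH2B above RNASEH2A, with no overlap between the ranges of these genes. The ratio of RNASEH2C to RNASEH2B was 5.09 ± 0.331 in RPKM.

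That ratio turned over when the same reads were scaled by another length. Recovered reads numbered 520 and 533 for RNASEH2B and 537 and 502 for RNASEH2C, so in CPM the ratio was 0.987 ± 0.0642 and the ranges overlapped. The RPKM of RNASEH2B had been divided by 26291 bases, the union of all its annotated exons, while its principal coding transcript has 1629 bases. That factor of 16.1 was at percentile 99.9 of 15546 protein-coding genes, whose median was 1.38. For RNASEH2C the lengths were 5101 and 2794 bases. With the length of the principal transcript in place of all exons, RNASEH2B stood at 24.6 ± 0.706, RNASEH2C at 14.2 ± 0.516 and RNASEH2A at 0.650 ± 0.0906 (SD, n = 2). RNASEH2B was then the highest subunit gene in both libraries, with a ratio of RNASEH2C to RNASEH2B of 0.576 ± 0.0375. The reads of RNASEH2B were still those of all 26291 bases, so any outside the principal transcript raise its value on this scale. Which transcripts these cells made was not measured, so neither order is settled. RNASEH2A was the lowest on all 3 scales.

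**Figure D2:**
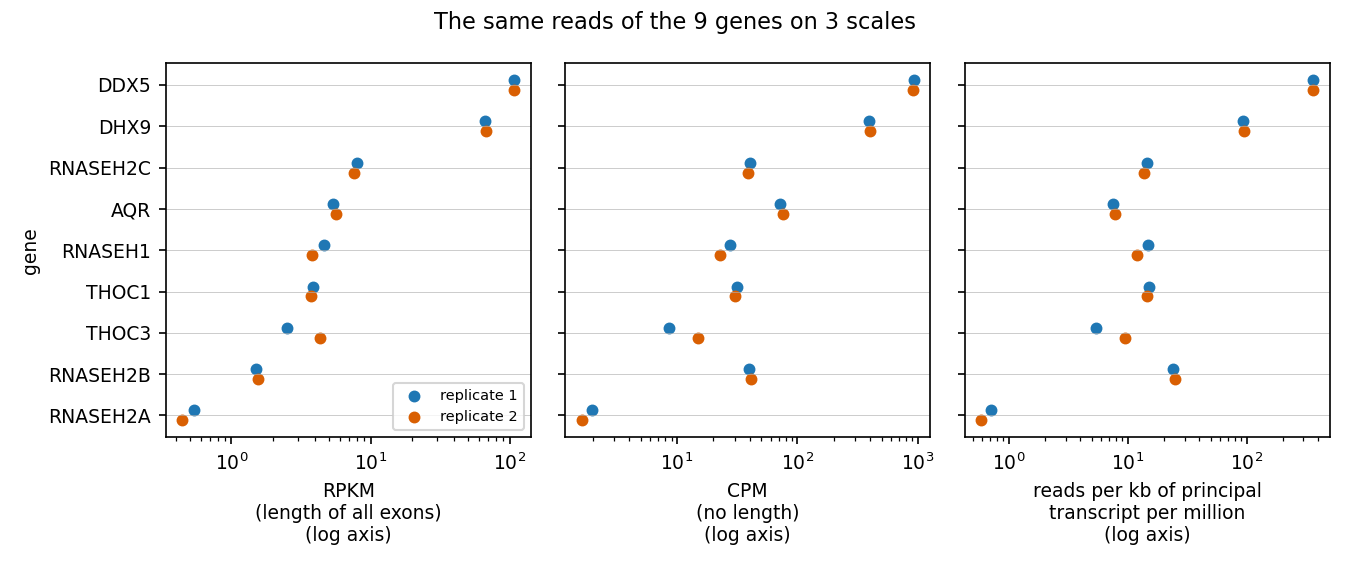
The same reads of the 9 genes as RPKM, as CPM and per kilobase of principal transcript (all log axes), with a point for each library. RNASEH2B moves from position 8 of 9 in RPKM to position 4 in CPM and position 3 per kilobase of principal transcript, while DDX5, DHX9 and RNASEH2A keep their places.

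Across all 9 genes, the order in RPKM was DDX5, DHX9, RNASEH2C, AQR, RNASEH1, THOC1, THOC3, RNASEH2B and RNASEH2A. Ranges overlapped between RNASEH1 and THOC1 and between THOC1 and THOC3, and not between the other neighbours. Per kilobase of principal transcript the order was DDX5, DHX9, RNASEH2B, THOC1, RNASEH2C, RNASEH1, AQR, THOC3 and RNASEH2A, with overlap between RNASEH2C and RNASEH1 and between AQR and THOC3. DDX5 and DHX9 led, and RNASEH2A came last, on every scale.

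RNASEH2A shares nearly all of its coding sequence with another annotated gene. Of its 897 coding bases, 887 (98.9%) lie in exons of THSD8, an overlapping protein-coding gene on the same strand, and THSD8 has no row among those kept here. The other 8 genes share at most 10.96% of their coding bases, the value for RNASEH1. Over the whole table, protein-coding genes whose coding bases lie in no exon of another gene had a median of 5.40 RPKM, and 74.5% of 11760 were expressed. Those with 90% to 100% of coding bases shared had a median of 0.758 RPKM, and 42.4% of 363 were expressed. RNASEH2A thus lay among the genes with the most overlap and the lowest median, and the part of the overlap in its level was not tested.

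**Figure D3:**
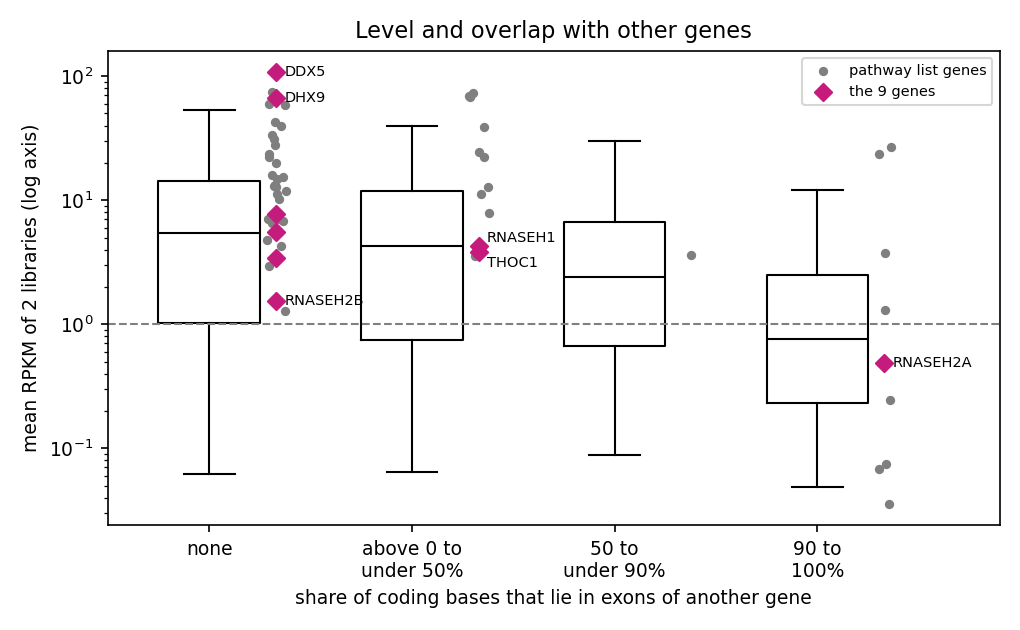
Mean RPKM of 2 libraries (log axis) of protein-coding genes by the share of coding bases that lie in exons of another gene, as boxes (median and quartiles; whiskers from percentile 5 to 95), with genes of the pathway lists as grey points and the 9 genes as diamonds. The median falls from 5.40 RPKM in the class with no overlap to 0.758 RPKM in the class of 90% to 100%, where RNASEH2A lies at 0.491 RPKM.

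RNASEH2C overlaps KAT5, an acetyltransferase gene on the opposite strand at 5.59 ± 0.0529 RPKM, over 1439 exonic bases, none of them coding. Of the windows of 50 bases in the principal transcript of RNASEH2C, 33.7% also occur in KAT5, read on either strand. For DDX5 and RNASEH2B no such window of the principal transcript occurred in another gene, and for AQR the share was 0.166%. Over all annotated exons, which RPKM covers, these genes also overlap others on the opposite strand. DDX5 shares 506 bases with CEP95 (8.42 ± 0.385 RPKM), and RNASEH2B shares 282 with RNASEH2B-AS1 and 21 with GUCY1B2. THOC1 shares 110 bases with USP14 (16.2 ± 0.460 RPKM). Within the principal transcripts, sequence shared with other genes touched RNASEH2A, RNASEH2C and THOC3 most, at 41.0%, 33.7% and 79.4% of windows.

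The THO complex binds nascent RNA and hands it to export factors, and loss of its subunits is a classic source of R-loops. THOC1 (chr18:214520-268050, minus strand), the gene of a core subunit, was at 3.87 and 3.75 RPKM, 3.81 ± 0.0837 RPKM (SD, n = 2). Its libraries differed by 2.19% (CV), less than counting error alone gives. The remaining THO genes, named here after their values were seen, were all higher in RPKM: THOC2 at 6.49 ± 0.116, THOC5 at 13.3 ± 0.573, THOC6 at 22.1 ± 0.160 and THOC7 at 31.4 ± 0.511. THOC7 was 8.24 ± 0.0467 times THOC1 in RPKM and 3.75 ± 0.0213 times THOC1 per kilobase of principal transcript. THOC2 was 1.70 ± 0.00694 times THOC1 in RPKM but lay below it per kilobase of principal transcript, at 0.804 ± 0.00328 times its level.

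THOC3 (chr5:175917873-176034680, minus strand), the gene of a WD-repeat subunit of THO, was the only one of the 9 genes to differ between the libraries beyond the test. Replicate 1 gave 2.50 RPKM and replicate 2 gave 4.36 RPKM, 3.43 ± 1.32 RPKM (SD, n = 2), from 114 and 196 reads. Replicate 2 was 1.75-fold higher, a log2 ratio of 0.81 ± 0.17 (SE from counting). An exact binomial test on recovered reads, 2-sided and with Benjamini-Hochberg adjustment over 11816 expressed genes, gave an adjusted p of 0.000295, and the test called 1.72% of those genes. Calls toward replicate 2, the direction of THOC3, made up 1.05% of the tested genes and calls toward replicate 1 made up 0.669%. It ranged from 0.000295 to 0.00822 over the alternatives, the highest with variation beyond counting added. With that added variation 9 genes were called in place of 203, and THOC3 was 1 of the 9. The test compares 2 libraries of 1 group and no conditions.

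RNASEH1 came next among the 9 by the size of its difference, with a log2 ratio of -0.28 ± 0.11 (SE from counting) and an adjusted p of 0.242 in the same exact test. The log2 ratios of the 8 genes other than THOC3 lay between -0.28 and 0.08, and the adjusted p of the 7 tested among them ranged from 0.242 to 0.947. RNASEH2A was not in the test, because it was below 1 RPKM. With 2 libraries, a p above the threshold does not show that a gene was equal in both.

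**Figure D4:**
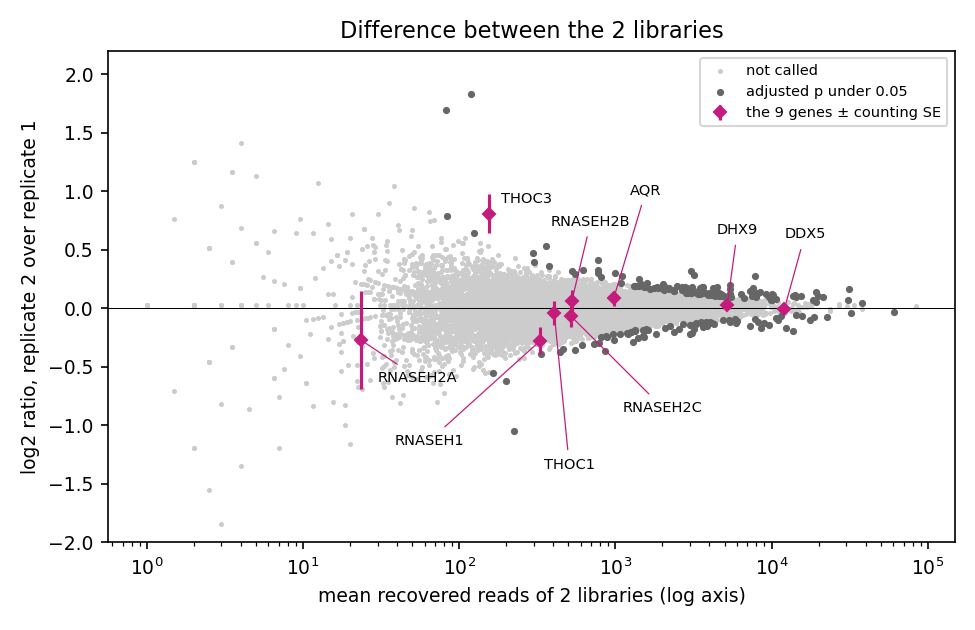
Log2 ratio of replicate 2 over replicate 1 against the mean of recovered reads (log axis) for each gene, with genes of adjusted p under 0.05 in dark grey and the 9 genes as diamonds with the counting SE. THOC3 at 0.81 lies above the cloud of genes with similar reads, and the other 8 diamonds lie between -0.28 and 0.08.

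The pseudogene copy matches most of the THOC3 transcript. Of the 50-base windows of the principal THOC3 transcript, 1223 of 1540 (79.4%) also occur in AC106795.1 (chr5:177809407-177950732), and of the 100-base windows 61.5%. The table lists a pseudogene at that place under its RefSeq name, LOC728554, with 1.02 RPKM in replicate 1 and 1.28 in replicate 2. Both THOC3 and LOC728554 were higher in replicate 2, and the sum of their RPKM was 3.52 and 5.64, a 1.60-fold difference. The value of THOC3 is therefore uncertain, as reads of near-identical copies can be split in counting, and the part of the copy in the library difference was not tested.

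Related genes show the setting in which the 9 genes were measured. Of 49 listed genes in 5 lists, 45 were expressed (91.8%), beside 66.7% of all entries and 72.9% of protein-coding entries. The median of the 49 was 12.8 RPKM, beside 4.24 RPKM for the 9 genes and 4.83 RPKM for protein-coding entries. The same shares of entries stand beside each count of expressed list genes and markers below. Among other hybrid helicases and nucleases 13 of 14 were expressed, and in RPKM the highest were the nucleolar helicase gene DDX21 at 73.8 ± 2.19 and the exonuclease gene XRN2 at 69.3 ± 1.41, both between DDX5 and DHX9. Per kilobase of principal transcript DDX17 was the highest of this list at 273 ± 4.40, while DDX21 at 77.9 ± 2.31 and XRN2 at 68.7 ± 1.40 lay below DHX9. ERCC5, a nuclease of excision repair, was below 1 RPKM at 0.246 ± 0.0561.

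Of other THO, TREX and export genes 13 of 15 were expressed, and in RPKM the highest were the export adaptor gene ALYREF at 73.7 ± 9.08 and POLDIP3 at 33.5 ± 1.13. ALYREF also led per kilobase of principal transcript, at 107 ± 13.2, followed there by THOC7 at 55.5 ± 0.903, with POLDIP3 lower at 35.6 ± 1.20. SARNP at 0.0679 ± 0.000760 RPKM and ZC3H11A at 0.0357 ± 0.00802 were below the level. ALYREF had 80.1 RPKM in replicate 1 and 67.3 in replicate 2, and it was the only gene of these lists called different between the libraries. Its log2 ratio of -0.24 ± 0.05 ran opposite to that of THOC3, with an adjusted p of 0.000573 in the exact test and of 0.424 with variation beyond counting added, which ends the call.

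Of the factors that handle supercoils and conflicts 12 of 13 were expressed, and in RPKM the highest were SSRP1 at 68.1 ± 2.44 and SUPT16H at 42.3 ± 1.25, the subunits of the histone chaperone FACT. Per kilobase of principal transcript SSRP1 led at 153 ± 5.48, and the splicing factor gene SRSF1 at 89.6 ± 0.753 lay above SUPT16H at 62.4 ± 1.85. TOP3B, a topoisomerase that acts on RNA and DNA, was at 0.0746 ± 0.00895 RPKM. Of the Aicardi-Goutières genes other than those of RNase H2, the 3 listed were expressed, ADAR at 39.4 ± 1.06 RPKM, SAMHD1 at 4.16 ± 0.207 and IFIH1 at 2.94 ± 0.276, and TREX1 was not listed. The RNase H2 genes ran from 0.491 to 7.76 RPKM beside them.

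**Figure D5:**
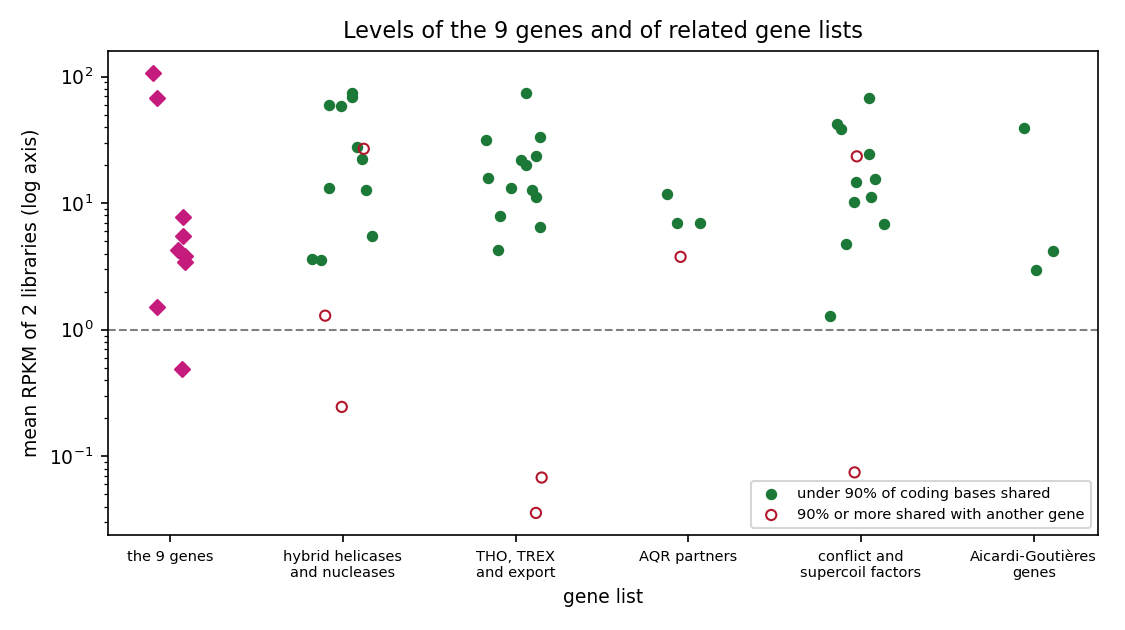
Mean RPKM of 2 libraries (log axis) of the 9 genes and of the genes of the 5 related lists, with open circles for list genes whose coding bases lie 90% or more in exons of another gene and a dashed line at 1 RPKM. The 4 list genes below the line are all open circles.

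The 4 list genes below 1 RPKM, ERCC5, SARNP, ZC3H11A and TOP3B, each share 90% or more of their coding bases with another gene, as RNASEH2A does. The overlapping gene lies on the same strand for RNASEH2A, ERCC5, SARNP and ZC3H11A, and on the opposite strand for TOP3B. The other 4 list genes with as much overlap were expressed: DDX39B at 26.9 RPKM, SRSF1 at 23.5 RPKM, ISY1 at 3.77 RPKM and DDX47 at 1.29 RPKM. Of the 41 list genes with less overlap, 0 were below the level. This split was made after the values were seen, and the part of the overlap was not tested.

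The label of the cells was set beside lists of markers, which were chosen, as all lists here, with earlier results of these data known. Of 7 markers of osteoblasts and mesenchyme 5 were expressed, COL1A1 at 209 RPKM, VIM at 249 RPKM, SPARC at 280 RPKM, RUNX2 at 8.55 RPKM and ALPL at 2.23 RPKM, while COL1A2 at 0.0515 RPKM and BGLAP at 0.277 were not. Of 9 listed markers of other cell types 3 were expressed, SNAP25 at 5.73 RPKM, EPCAM at 2.28 and CD3D at 1.11, with summed levels of 11.1 and 10.1 RPKM in replicates 1 and 2. HBB and ALB were not listed.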

How the data were processed

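RNA from 2 libraries of 1 group was analysed. The deposited values are RPKM made by the authors, 1 column per library, per the file headers. Trim Galore, HISAT2 and featureCounts, with the builds hg38 and GRCh38.p13, are named per the submitters' processing notes. Versions, annotation, strand setting and filters were not given in the sources used here. While the design allowed for counts, the unit was RPKM, so the tests used recovered reads.

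Of 18277 rows and 18141 symbols, 58 symbols had several rows and their 194 rows were left out. A gene is called not listed when it has no row among those kept. Rows that shared both values were taken once in counts over the table, which left 17912 entries. For 100% of genes the columns stood in a whole-number ratio (tolerance 2e-13), and the library totals followed from 1019 genes that had equal reads. Reads were recovered up to a whole factor, set so that the length came near the exonic length of GENCODE release 29 (within 10% for 91.0% of 17437 matched symbols, equal for 43.9%). For RNASEH1 it was 5945 bases against 2865, so its reads are less certain. Recovered reads made up 97.9% of each total.

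The principal transcript is the one APPRIS marks in GENCODE. Overlap counts coding bases that lie in exons of other genes, on either strand. Replicates 1 and 2 were compared by an exact binomial test, 2-sided, after scaling by the trimmed mean of M values (factor 0.995 for replicate 2); Benjamini-Hochberg adjusted values under 0.05 were called. The scripts were tested on simulated data. Variation beyond counting was fitted as a coefficient of variation of 2.60%. Counting SEs and these tests cover no error other than what is named, since reads without molecular identifiers are not independent molecules. ERCC5 shares its row values with BIVM-ERCC5.

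The 9 genes and all lists were chosen with earlier results of these data known. Named genes were the 9, the 2 highest and the lowest of each list, those below 1 RPKM or called different, DDX17, copies and overlapping genes, and markers. Outside this rule, THOC2, THOC5, THOC6, THOC7, ZNF830 and the list genes DDX39B, DDX47 and SRSF1 were named after their values were seen. Python 3.11.15, numpy 2.4.6, scipy 1.17.1, pandas 2.3.3, Biopython 1.88 and matplotlib 3.10.9 were used.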

Additional observations from a re-analysis of the deposited data

How the results depend on the processing

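Of the 9 genes, 8 were expressed at 0.5 RPKM, per kilobase of principal transcript and from either library alone, 9 at 1 CPM and 4 at 5 RPKM. For all entries a share is given only at 1 RPKM in both libraries (66.7%), so the counts at other settings stand without one. The median of the 9 genes, 4.24 RPKM, became 4.88 among expressed genes only, without THOC3 or without RNASEH2A. It was 4.36 to 4.65 with either library left out. Per kilobase of principal transcript it was 14.2, beside 7.54 over the entries that have a protein-coding transcript. The settings per principal transcript, under 90% overlap and without RNASEH2A were chosen after seeing the data. Genes called different between the libraries numbered 203, 199 by library totals, 183 with no filter, 112 at an adjusted p under 0.01 and 9 with variation beyond counting added; the last 2 are stricter by construction. THOC3 was the only one of the 9 called in each of these. The list count of 45 stayed between 36 and 46. Leaving out a library could not be run for the library comparison, which needs both. No paired analysis was possible because there is only 1 group. Depth limits RNASEH2A most, with 47 reads in both libraries together.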
